A study of Mus musculus with 12 samples.

Results

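Astrocytes of the midbrain were compared between mice with no intact copy of Cd38 and mice with 1 intact copy, using 9 of the 12 RNA-seq libraries of the series. The Cd38-/- group had 6 libraries and the Cd38+/- group had 3, each from male mice aged 12 to 14 months, and the 3 wild-type libraries were not used. Members were chosen by genotype alone, as the sample labels give it. The line carries a global disruption of Cd38 (B6.129P2-Cd38tm1Lnd/J, bred on C57BL/6J), so the gene was lost in all cells of the null mice and not in astrocytes alone, and the heterozygotes carry the same disrupted allele once. Striatum, thalamus and substantia nigra were dissected, dissociated with papain, depleted of endothelial cells, myelin and CD11b+ cells, and astrocytes were then bound with ACSA-2 beads. Ribosomal RNA was depleted before a full-length cDNA protocol for low input. Expression was deposited as TPM, a share of all transcripts that is corrected for transcript length, from which sequencing depth cannot be read.

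CD38 is an ecto-enzyme that cleaves NAD+ to ADP-ribose and cyclic ADP-ribose, messengers that open calcium channels of the plasma membrane and the endoplasmic reticulum. It is a main consumer of NAD+ in many tissues, and BST1 (CD157) is its paralog and chromosomal neighbour. Astrocytes take up glutamate and potassium, move water through aquaporin at their end feet and release proteins that shape synapses. A heterozygote keeps 1 intact gene copy, so the question here was what changed when that copy was lost too.

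Of 20614 genes in the table, 11563 had a mean above 5 TPM in at least 1 of these genotypes and were tested on log2(TPM + 1) with limma. Genes were called differentially expressed (DEGs) at a Storey q-value below 0.05 with a change of 1.2-fold or more. Fold changes are on the log2(TPM + 1) scale, which understates the change of low genes, and are given as Cd38-/- minus Cd38+/-. Between 16160 and 16327 genes were above 0 TPM in the Cd38+/- libraries and between 15920 and 17906 in the Cd38-/- libraries. The null libraries numbered 5 and 6 stood apart, at 17906 and 17535 genes, and the other null libraries had at most 16406. The cause was not tested. Apoe was the most abundant gene of every library, with 31311 to 46797 TPM. The median Pearson's r across genes was 0.973 for pairs of Cd38-/- libraries, 0.967 for pairs of Cd38+/- libraries and 0.968 for pairs of both genotypes, and genes are not independent replicates. The labels do not say that each library is a separate mouse, so p-values measure the spread between these libraries.

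Only 4 genes were DEGs, 0.0346% of those tested. Cd38 and Dram2 fell (0.0173%), and Dynlt1b and Plac9b rose (0.0173%). An unadjusted p under 0.05 was reached by 1299 genes (11.2%), of which 721 were higher (6.24% of those tested) and 578 lower (5% of those tested) in Cd38-/-. The values of both genotypes were fully separated, without overlap, in 662 genes (5.73%), with 329 higher (2.85%) and 333 lower (2.88%). The median log2 fold change of all tested genes was -0.02. Single libraries decided which genes passed the q-value threshold. With each library left out in turn, Cd38 passed in 8 of 9 fits and had q = 0.0595 by limma without the Cd38+/- library numbered 3, where no gene passed and 767 were at an unadjusted p under 0.05. Dynlt1b passed in 4 of these 9 fits, without the Cd38-/- libraries numbered 1, 3, 4 or 5, and Dram2 and Plac9b in 1, without the Cd38-/- library numbered 4. With median-ratio scaling of the libraries Cd38 was the single DEG. Over all 22 alternative fits, Cd38 was a DEG in 21, Dynlt1b in 13, Dram2 in 9 and Plac9b in 8.

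Cd38 (ENSMUSG00000029084, chromosome 5, 43868553 to 43912375 on GRCm38) held 90.8, 90.7 and 90.4 TPM in the Cd38+/- libraries and 21.9, 11.9, 13.5, 17.9, 20.5 and 8.54 TPM in the Cd38-/- libraries. The heterozygous libraries were nearly identical to each other, and every null library lay far below them. Its log2 fold change was -2.52 (SE 0.25, limma q = 0.0034; two-sided exact permutation test, p = 0.0119, the smallest that 6 against 3 libraries allow). Reads were still assigned to the gene in the null libraries, and a single value per gene does not show from which exons they came. The paralog Bst1 was not tested, since it lay between 0 and 0.16 TPM in the Cd38+/- and between 0 and 0.38 TPM in the Cd38-/- libraries.

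Dram2 (ENSMUSG00000027900, chromosome 3, 106547798 to 106575890) encodes a lysosomal membrane protein that acts in autophagy. It held 46.9, 48.5 and 45.3 TPM in the heterozygous and 24.8 to 30.2 TPM (median 26.4) in the null libraries, and the groups lay far apart. The log2 fold change was -0.79 (SE 0.10, limma q = 0.0205). Its relative Dram1 shares none of its 31-base stretches, so reads of Dram2 can be told from those of Dram1.

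Dynlt1b (ENSMUSG00000096255, chromosome 17, 6430112 to 6436296) encodes a light chain of cytoplasmic dynein, the motor that carries cargo towards the minus end of microtubules. It rose from 151, 158 and 152 TPM to 236 to 294 TPM (median 249.9), without overlap (log2 fold change 0.74, SE 0.09, limma q = 0.0149). Of the 31-base stretches in its transcripts, 80.7% also occur in Dynlt1a, 82.7% in Dynlt1c and 78.5% in Dynlt1f. Dynlt1f was higher in every null library as well, from 86.3, 94.0 and 99.2 TPM to 108 to 148 TPM (median 134), with a limma q of 0.111. Dynlt1a and Dynlt1c overlapped between the genotypes, with log2 fold changes of 0.36 (SE 0.19) and 0.28 (SE 0.17), and the more distant Dynlt3 had -0.17 (SE 0.09). The split of reads among the Dynlt1 copies is uncertain.

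Plac9b (ENSMUSG00000072674, chromosome 14, 26167405 to 26182480), named for its expression in placenta, rose from 632, 950.5 and 656 TPM to 1342 to 2418 TPM (median 1821). Its log2 fold change was 1.32 (SE 0.19, limma q = 0.0476), the largest of the 4 in the upward direction. The copy Plac9a held 55.6, 71.4 and 47.7 TPM in the Cd38+/- and 91.0 to 160.0 TPM (median 125) in the Cd38-/- libraries, and its q was 0.0656. Of the 31-base stretches of Plac9b, 96.6% are also in Plac9a, so the 2 values may share reads. Over the 7 tested Plac9 and Dynlt1 genes, 6 were higher in Cd38-/- and 4 did not overlap (57.1%, against 2.85% of all genes). The list was drawn up after these DEGs were known, so Plac9b and Dynlt1b were in it by choice. The others without overlap, Plac9a and Dynlt1f, share 31-base stretches with them and are not separate observations.

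**Figure D1:**
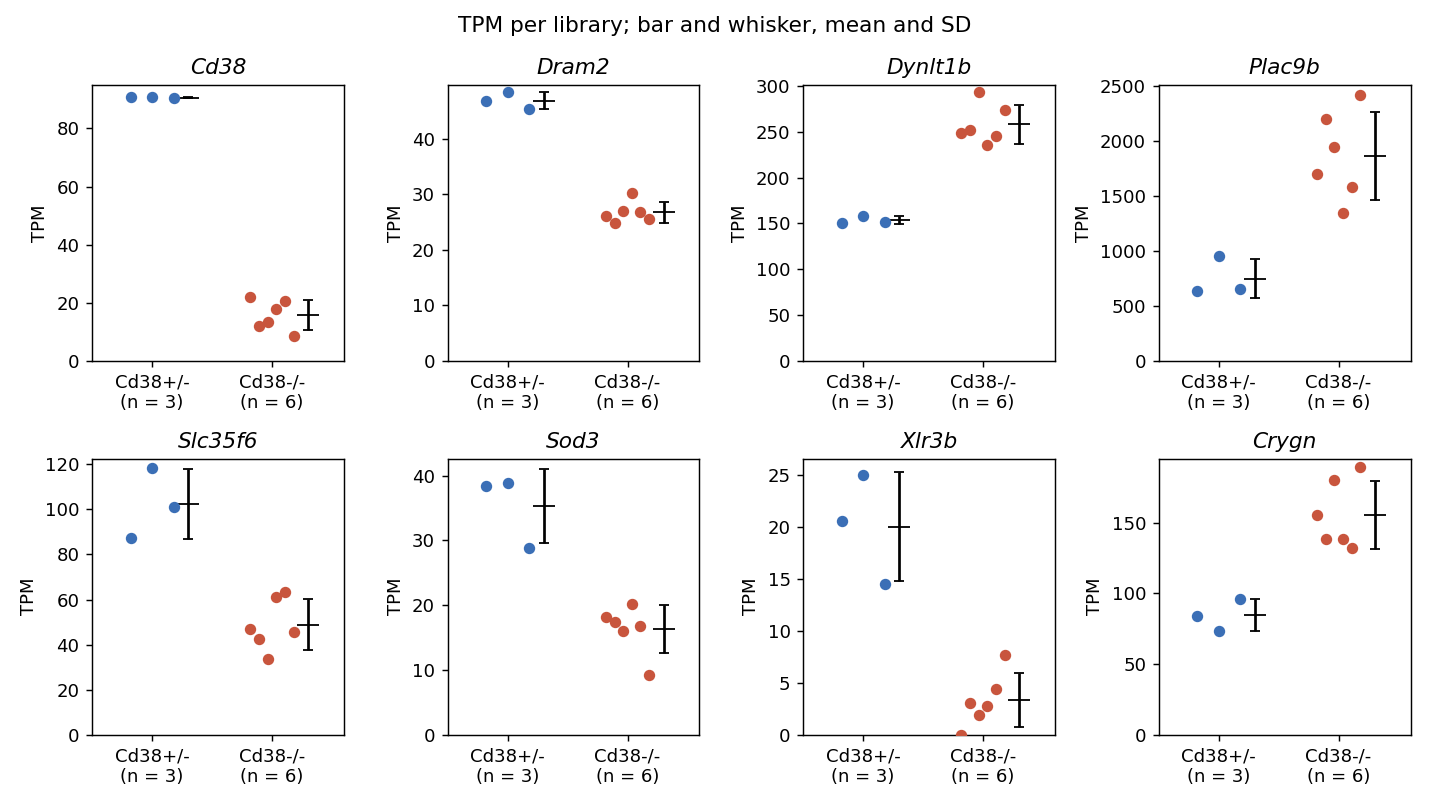
TPM (y axis, from 0) of the 4 DEGs in the upper row and of 4 further genes named in the text in the lower row; each point is 1 library, and the bar and whisker are the mean and SD of 3 Cd38+/- or 6 Cd38-/- libraries. In all 8 genes the points of the genotypes do not overlap, which was a condition for choosing the lower row. Cd38 lies between 8.54 and 21.9 TPM in the null libraries against 90.4 to 90.8 TPM.

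Beyond the DEGs, the genes with the largest differences among those without overlap and at an unadjusted p under 0.05 were Xlr3b, Sod3, Slc35f6 and Cacng8 on the lower side. Xlr3b, an X-linked lymphocyte-regulated gene of a multicopy family, held 20.6, 25.0 and 14.5 TPM in the heterozygous and 0 to 7.72 TPM in the null libraries (log2 fold change -2.53, SE 0.53, limma q = 0.0918). Reads of its family members may be shared. Sod3, the secreted superoxide dismutase of the extracellular space, held 38.4, 38.8 and 28.7 TPM against 9.18 to 20.1 TPM (median 17.1), with a log2 fold change of -1.10 (SE 0.21, limma q = 0.0812). The null library numbered 6 was the lowest for Sod3, at 9.18 TPM. Slc35f6, a member of the nucleotide-sugar transporter family, held 87.4, 118 and 101 TPM against 33.5 to 63.4 TPM (median 46.3). The channel subunit gene Cacng8, which encodes a regulator of AMPA receptors, held 8.91, 11.6 and 7.87 TPM against 2.51 to 5.36 TPM (median 4.06). Col1a1 (collagen I), the homeobox gene Prrx2 and Dagla, the diacylglycerol lipase that makes the endocannabinoid 2-arachidonoylglycerol, were also lower without overlap, with log2 fold changes of -0.78, -0.92 and -0.76 and q of 0.218, 0.101 and 0.181. Xlr3b, Cacng8, Col1a1 and Prrx2 had a mean of at most 5 TPM in the null libraries and passed the filter only through the heterozygous ones.

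On the higher side, the same rule gave Zp3, Ctla2a, Hp, Rbp2, Crygn, Efcab10 and Nhlrc4 besides the Plac9 genes. Zp3, a zona pellucida glycoprotein gene, was at 1.94, 1.82 and 1.91 TPM against 3.88 to 6.61 TPM (median 5.12), so it passed the filter only through the null libraries. Hp, which encodes the haemoglobin-binding protein haptoglobin, held 23.1, 22.8 and 15.5 TPM against 30.9 to 43.9 TPM (median 40.0) (log2 fold change 0.92, SE 0.15, limma q = 0.0656). Rbp2, a cellular retinol-binding protein gene, held 20.7, 19.7 and 16.9 TPM against 26.3 to 44.5 TPM (median 37.7). Crygn, a crystallin gene, held 83.7, 73.6 and 96.2 TPM against 132 to 189.7 TPM (median 147), with a q of 0.0626. The EF-hand gene Efcab10 had a log2 fold change of 0.85 (SE 0.15) and Nhlrc4 one of 0.84 (SE 0.21). Ctla2a rested partly on 1 null library, at 46.8 TPM against 24.8 TPM in the next.

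Among gene families, the motile cilium genes lay on the higher side throughout. Motile cilia beat by dynein arms that slide the outer doublet microtubules, with radial spokes and a nexin link that coordinate them, and in the brain they line the ependyma. Their transcription is driven by FOXJ1 and by RFX factors, which bind an X-box built from GTTGCC half-sites. All 75 tested genes of the 79 in the list were higher in Cd38-/-, 33 of them at an unadjusted p under 0.05 (44%, against 6.24% of all genes) and 7 without overlap (9.33%, against 2.85%). None was a DEG, and the median of their log2 fold changes was 0.50.

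The GTTGCC half-site was searched on both strands (GTTGCC or GGCAAC) in the 300-base RefSeq promoters of GRCm38.p6, from 250 bases before to 50 after each start. It was chosen after the list had been seen to stand out. It occurred in 26 of 69 promoters of 61 motile cilium genes (37.7%), against 13.4% of 12025 promoters of all tested genes, 11.3% for ribosomal protein genes and 13.6% for astrocyte markers. The promoters of 3 genes are shown to make the half-sites visible. They are the first 3 motile cilium genes by limma p with a half-site in the 250 bases before the start. These bases are printed on the gene's strand, with the half-sites in capitals. The sites are a description of the sequence, not of binding. The printed stretches lie at chr9:44240427-44240676 (plus strand), chr7:83794840-83795089 (minus strand) and chr16:90934850-90935099 (minus strand).
Ccdc153: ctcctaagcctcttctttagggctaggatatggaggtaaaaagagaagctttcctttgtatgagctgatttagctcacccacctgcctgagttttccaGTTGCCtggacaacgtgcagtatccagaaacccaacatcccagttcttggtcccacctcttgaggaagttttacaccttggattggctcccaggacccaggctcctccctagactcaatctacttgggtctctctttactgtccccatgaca
Cfap161: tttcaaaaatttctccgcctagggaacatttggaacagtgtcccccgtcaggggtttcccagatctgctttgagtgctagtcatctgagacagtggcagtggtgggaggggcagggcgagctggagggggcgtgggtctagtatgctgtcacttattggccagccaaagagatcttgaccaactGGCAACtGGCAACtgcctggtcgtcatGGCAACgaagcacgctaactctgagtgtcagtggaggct
Cfap298: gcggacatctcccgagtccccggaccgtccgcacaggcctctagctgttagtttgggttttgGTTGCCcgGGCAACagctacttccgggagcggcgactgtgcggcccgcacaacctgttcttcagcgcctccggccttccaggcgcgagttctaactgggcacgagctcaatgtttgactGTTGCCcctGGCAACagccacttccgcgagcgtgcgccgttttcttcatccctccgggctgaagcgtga
In Ccdc153 the site starts 152 bases before the start. In Cfap161 there are 3 sites, at 66, 59 and 39 bases, and in Cfap298 4 sites form 2 inverted pairs, at 188 and 180 and at 69 and 60 bases.

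By role, all 10 dynein heavy chain genes were higher, with 1 at p under 0.05 (against 6.24% of all genes) and a median log2 fold change of 0.37. The 7 radial spoke genes had a median of 0.50, and 5 were at p under 0.05. Of 31 Cfap genes, 15 were at p under 0.05 (median 0.50), and of 4 tektin genes, which encode filaments of the doublet wall, 3 were (median 0.55). Tekt4 held 62.6, 46.0 and 52.5 TPM in the heterozygous and 68.4 to 88.8 TPM (median 84.5) in the null libraries (log2 fold change 0.60, SE 0.12, limma q = 0.0812). The coiled-coil gene Ccdc153 held 895, 725 and 759 TPM against 938 to 1493 TPM (median 1338). The basal body gene Cfap126 held 115, 109 and 131 TPM against 144 to 206 TPM (median 196). The radial spoke gene Rsph14 held 62.7, 45.1 and 48.4 TPM against 61.0 to 99.3 TPM (median 84.4), with overlap. The master regulator Foxj1 itself held 162, 87.5 and 145 TPM against 111 to 234 TPM (median 155), overlapping widely (log2 fold change 0.32, SE 0.27, limma q = 0.496). The Foxj1 value was 0.057 without the heterozygous library numbered 2 and 0.50 without the library numbered 1.

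Markers of ependymal cells, the ciliated lining of the ventricles, moved in the same direction. All 14 were higher, 9 at p under 0.05 and 7 without overlap (50%, against 2.85% of all genes), with a median log2 fold change of 0.59. Of the 14, 7 are also in the motile cilium list. Outside it, Mia, which encodes a secreted SH3-domain protein, held 239, 246 and 219 TPM against 313 to 456 TPM (median 388), and Tmem212 held 713, 629 and 682 TPM against 805 to 1289 TPM (median 1183). Dynlrb2, a dynein light chain gene, held 493, 435 and 511 TPM against 583 to 927 TPM (median 781) (log2 fold change 0.67, SE 0.13, limma q = 0.089). The summed level of the list was 6808, 5066 and 5765 TPM in the heterozygous libraries and 10327, 9093, 9908, 6500.0, 8218 and 9160.2 TPM in the null libraries. The null library numbered 4 was the lowest of its genotype and lay within the heterozygous range. In bulk RNA, more cells of a type and more RNA per cell cannot be told apart, and the part of ependymal cells in the cilium genes was not tested.

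Without the null library numbered 4, 93 genes were DEGs, 82 higher and 11 lower, and 12 of the 82 higher genes were in the motile cilium or ependymal lists, which held 82 tested genes (14.6% of them, against 0.708% of all genes). That library was the lowest null library for both lists. Leaving it out raises their difference by construction, so this share is not separate support. Leaving out the heterozygous library numbered 2 gave the lowest median of the motile cilium list, 0.26, and leaving out the library numbered 1 the highest, 0.71. The count at p under 0.05 was 15 and 58 in these fits. Over all alternatives, between 15 and 66 of its genes were higher at p under 0.05.

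Cytosolic ribosomal protein genes, whose products form the large and small subunits of the ribosome, also lay higher throughout. All 80 tested of 83 listed genes had a higher mean, 37 at p under 0.05 (46.3%, against 6.24%) and 11 without overlap (13.8%, against 2.85%), and none was a DEG. The median log2 fold change was 0.28 for the 48 large subunit genes and 0.31 for the 32 small subunit genes. Rps29 held 266, 300.1 and 324 TPM in the heterozygous and 365 to 603 TPM (median 509.5) in the null libraries (log2 fold change 0.71, SE 0.17, limma q = 0.139). Rpl38 held 229, 271 and 267 TPM against 319 to 486 TPM (median 402), Rpl41 held 391, 483 and 471 TPM against 533 to 801 TPM (median 673), and Rpl37a held 161, 194 and 180.2 TPM against 195 to 347 TPM (median 282). The sums over the list overlapped between genotypes, at 12460.2, 15782 and 14044 TPM against 13941, 17624, 21795, 19099, 15559.6 and 19820.4 TPM. The null library numbered 1, the highest for motile cilium genes, was the lowest of its genotype for ribosomal proteins. The count of 37 fell to 15 or 20 without the heterozygous library numbered 1 or 3 and to 23 without the null library numbered 6, and it was 65 without the null library numbered 1. Over all alternatives it ran from 13 to 74. The transcripts of this list were short, with a median of 630 bases against 1382 bases for all tested genes with an annotated length. Ribosomal protein genes have processed pseudogenes of near-identical sequence, and how their reads were shared is uncertain.

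Among mitochondrial ribosomal proteins 65 of 77 were higher, with 4 at p under 0.05 (5.19%, against 6.24%) and a median of 0.09. Without the heterozygous library numbered 1 that median was 0.019 and the count 1, and without the library numbered 2 they were 0.15 and 8. Of 45 proteasome subunits 39 were higher, with 5 at p under 0.05 (11.1%, against 6.24%) and a median of 0.11. The count was 2 without any 1 of the heterozygous libraries and without the null library numbered 3 or 6, and 3 without the null library numbered 2 or 5.

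**Figure D2:**
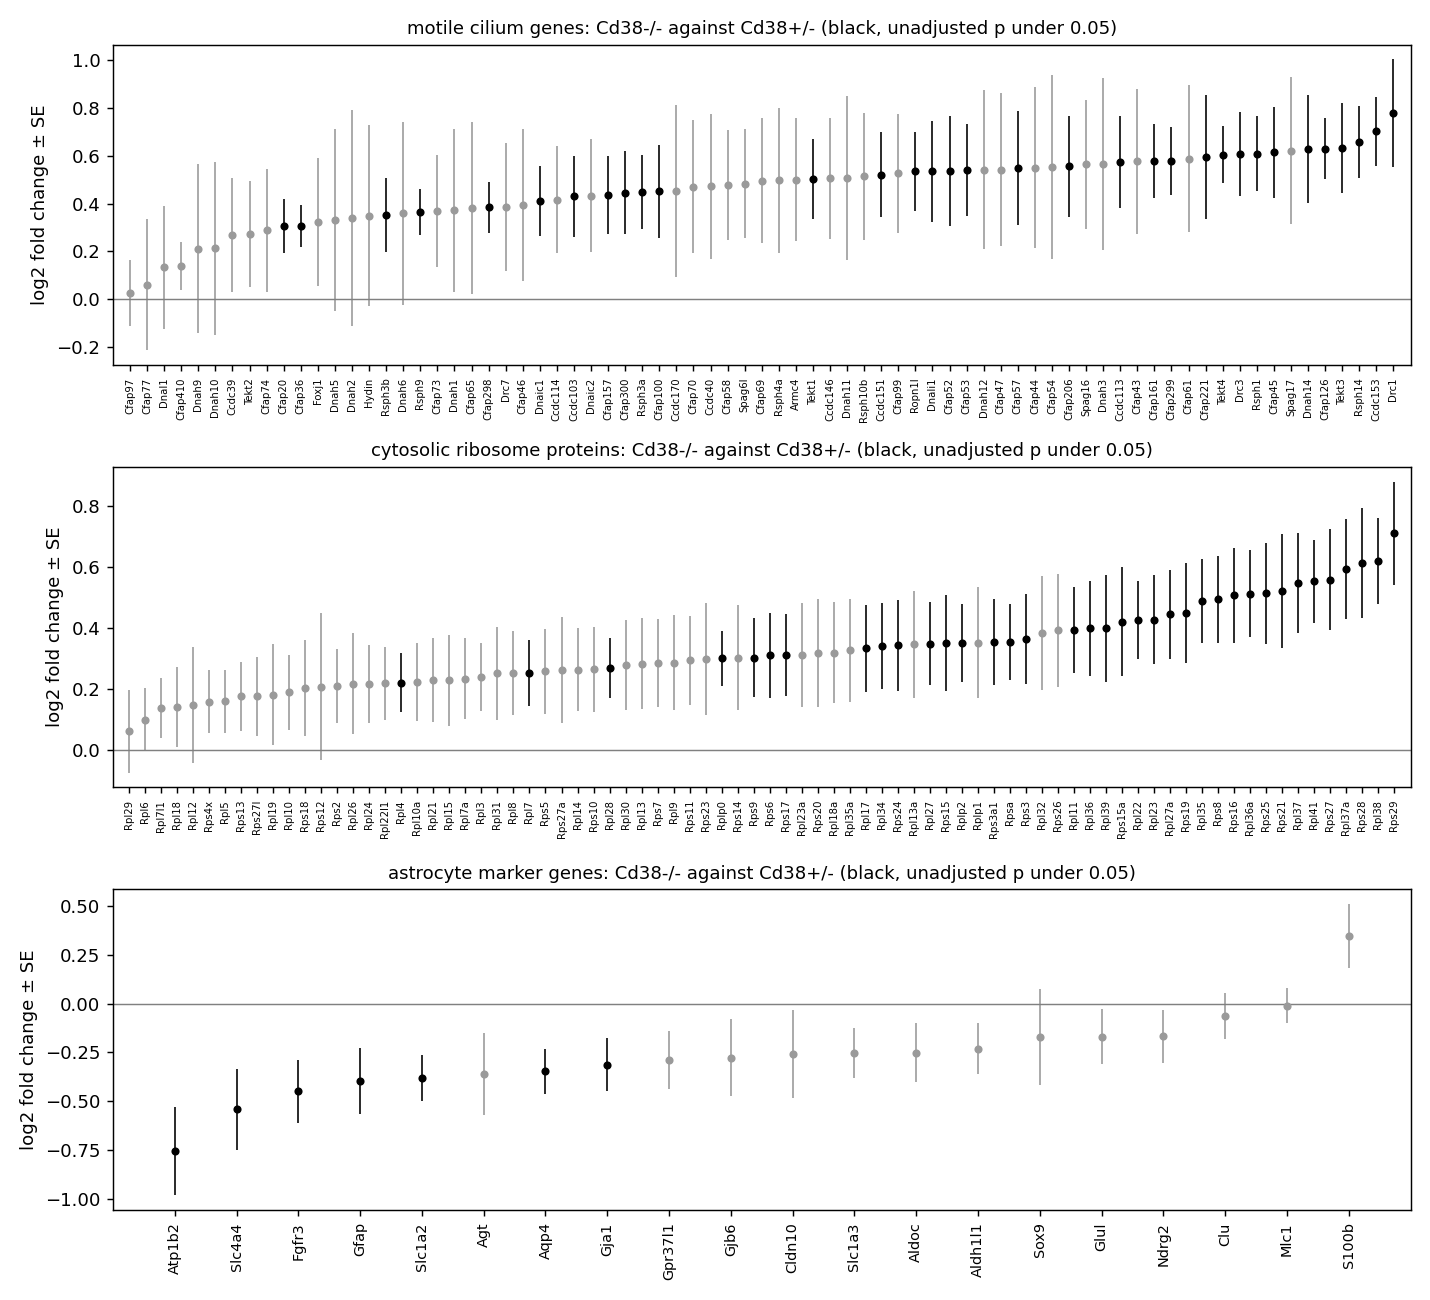
Log2 fold change (y axis, Cd38-/- against Cd38+/-, bars SE) of each tested motile cilium gene, cytosolic ribosomal protein gene and astrocyte marker, ordered by size; black marks an unadjusted limma p under 0.05. All 75 cilium and 80 ribosomal protein genes lie above 0, and 19 of 20 astrocyte markers lie below 0.

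Astrocyte markers lay on the lower side. Of 20 markers, 19 were lower, 7 at p under 0.05 (35%, against 5% of all genes) and 3 without overlap (15%, against 2.88%), with a median log2 fold change of -0.27. The exception was S100b, at 0.35 (SE 0.16). Their summed level was 39310.1, 44913 and 45012 TPM in the heterozygous and 31009 to 41269 TPM in the null libraries, so the cells of both groups held a high level of the markers of the labelled type. Gfap, the intermediate filament of astrocytes, held 734, 698 and 798 TPM against 406 to 723 TPM (median 572), and Gja1 (connexin 43) held 2896, 3396 and 3336 TPM against 2167 to 3171 TPM (median 2619), both overlapping. Fgfr3, a growth factor receptor of astrocytes, held 1012, 936 and 1091 TPM against 544 to 982 TPM (median 779). Slc1a3, the glutamate transporter GLAST, and Glul, glutamine synthetase, had log2 fold changes of -0.25 (SE 0.13) and -0.17 (SE 0.14), and Glul was at -0.079 without the heterozygous library numbered 2 and at -0.25 without the library numbered 1. Without the heterozygous library numbered 3 the count of astrocyte markers at p under 0.05 was 3, and over all alternatives it ran from 3 to 16.

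Genes of water and potassium handling were lower as a group. Of 22 genes, 19 were lower, 9 at p under 0.05 (40.9%, against 5%) and 8 without overlap (36.4%, against 2.88%), and the median was -0.30. Atp1b2, a regulatory subunit of the sodium pump in glia, held 2059.7, 2398 and 2063 TPM against 732 to 1761 TPM (median 1347) (log2 fold change -0.75, SE 0.23, limma q = 0.2), and the null library numbered 3 was the lowest. Aqp4, the water channel of end feet, held 955, 946 and 967 TPM against 631 to 906 TPM (median 736), and Dmd, whose product dystrophin anchors it, held 199, 201 and 186 TPM against 115 to 178 TPM (median 151). Of these 3, none overlapped between the genotypes. The summed level of the list was 10165.2 to 10576 TPM in the heterozygous and 6794 to 9025 TPM in the null libraries.

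Glutamate and GABA handling showed the same direction, with 18 of 23 genes lower, 8 at p under 0.05 and the same number without overlap (34.8%, against 5% and 2.88%), and a median of -0.24. Slc1a2, the transporter GLT-1, held 323, 316 and 325 TPM against 201 to 281 TPM (median 257) (log2 fold change -0.38, SE 0.12, limma q = 0.216). Grm3, a metabotropic glutamate receptor, held 190.2, 181 and 189 TPM against 106 to 156 TPM (median 148). Slc7a11, the cystine/glutamate exchanger, held 82.7, 70.7 and 80.8 TPM against 44.1 to 70.7 TPM (median 59.2), and Slc6a9, the glycine transporter GlyT1, held 605, 589 and 727 TPM against 322 to 532 TPM (median 491). Without the heterozygous library numbered 3, 5 genes were at that p. The sums over the list were 10736 to 12071 TPM in the heterozygous and 7247 to 10576.5 TPM in the null libraries. Of the 20 astrocyte markers, 4 are also in the water and potassium list and 3 in the glutamate and GABA list. Whether astrocyte identity genes were lower per cell, or a smaller share of the RNA came from astrocytes, cannot be told apart.

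**Figure D3:**
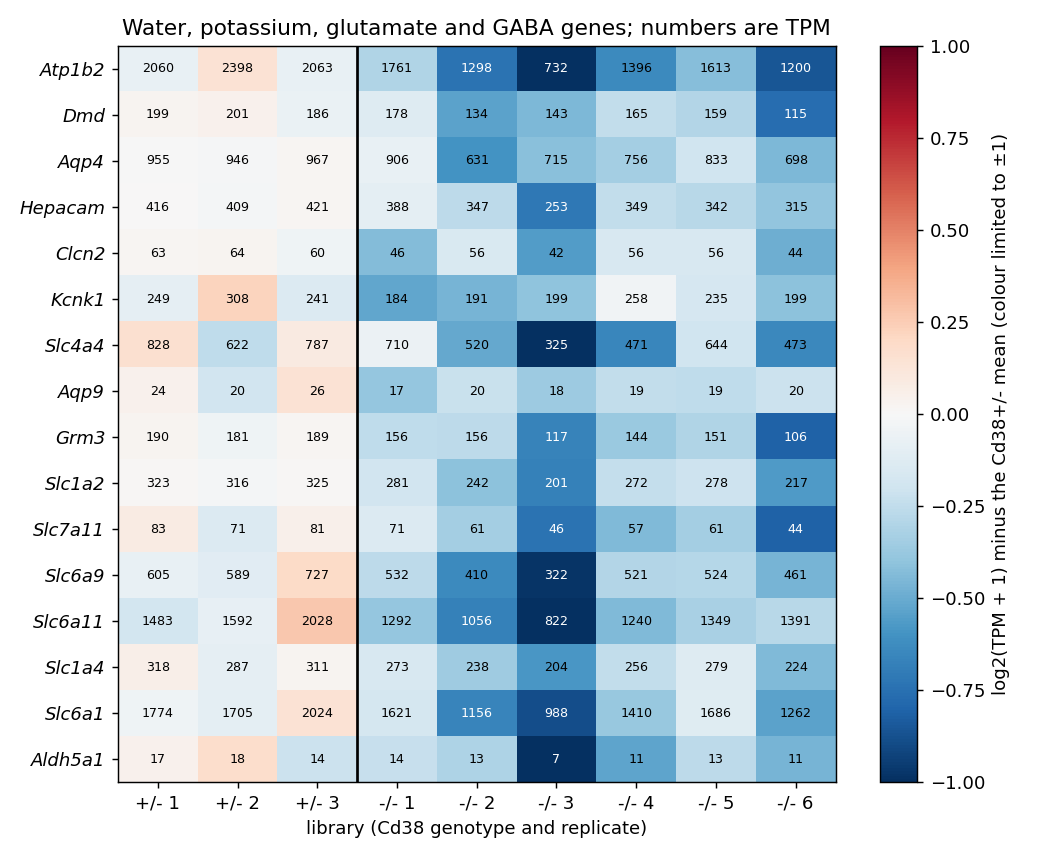
The plot holds 16 of the 17 water, potassium, glutamate and GABA genes that reached an unadjusted p under 0.05, in the 3 Cd38+/- and 6 Cd38-/- libraries; the number in each cell is the TPM and the colour is log2(TPM + 1) minus the Cd38+/- mean. Null libraries are blue in nearly all cells, which follows from the choice, as the genes were picked by that p and none was higher at it. The blue is deepest in the library numbered 3, where Atp1b2 is at 732 TPM against 2060 to 2398 TPM in the heterozygotes.

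Secreted and adhesive regulators of synapses were lower too, with 20 of 24 lower, 7 at p under 0.05 (29.2%, against 5% of all genes) and a median of -0.31. Lgi4 and Lgi1, secreted ligands of ADAM receptors, held 152, 173 and 173 TPM against 97.4 to 139 TPM (median 126) and 162, 167 and 165 TPM against 86.2 to 163 TPM (median 118). Bcan, the perineuronal proteoglycan brevican, held 1893, 1888 and 1993 TPM against 1161 to 1658 TPM (median 1501). The Wnt pathway had 6 of 30 genes lower at p under 0.05, all 6 without overlap (20%, against 5% and 2.88%), and none higher at that p. Lgr6, a receptor that potentiates Wnt signals, held 30.9, 29.7 and 27.9 TPM against 13.9 to 20.5 TPM (median 18.6) (log2 fold change -0.71, SE 0.14, limma q = 0.0812). The ligand gene Wnt7a held 73.1, 88.4 and 83.6 TPM against 47.1 to 70.8 TPM (median 57.7), and the receptor genes Fzd9 and Fzd1 held 72.4, 77.3 and 78.5 TPM against 49.6 to 72.1 TPM (median 51.4) and 49.3, 43.0 and 51.5 TPM against 27.4 to 40.7 TPM (median 34.2). In the Hedgehog pathway 11 of 12 genes were lower and 3 were at p under 0.05 (25%, against 5%), Gas1, Gli1 and Smo, with log2 fold changes of -0.34, -0.58 and -0.26. Smo was at -0.14 without the heterozygous library numbered 3 and at -0.36 without the library numbered 2. The Hedgehog count was 1 without the heterozygous library numbered 1 or 3 or the null library numbered 3, and 6 without the null library numbered 1. Clustered protocadherins, cell recognition genes of chromosome 18 that share exons, had 24 of 26 lower and 5 at p under 0.05 (19.2%, against 5%; median -0.29). Their count was 1, 2, 3 and 3 without the heterozygous library numbered 1, the heterozygous library numbered 3 and the null libraries numbered 3 and 6, and 9 without the null library numbered 1.

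Receptors and bridging proteins of phagocytosis had 6 of 21 genes lower at p under 0.05 (28.6%, against 5%) and 4 without overlap (19%, against 2.88%). The first count was 2 or 3 without the heterozygous library numbered 3 or 1, and 3 without the null library numbered 6. Axl and Tyro3, receptor kinases that recognise apoptotic cells, held 123, 130.0 and 142 TPM against 92.4 to 115 TPM (median 103) and 43.5, 38.0 and 45.0 TPM against 23.6 to 37.4 TPM (median 31.8), and the bridge Mfge8 held 3123, 3326 and 3125 TPM against 2163 to 2994 TPM (median 2664). Itgb5 held 240.0, 218 and 253 TPM against 177 to 204 TPM (median 188). In cholesterol and fatty acid synthesis 32 of 33 genes were lower and 8 were at p under 0.05 (24.2%, against 5%), with a median of -0.20. The count was 3 or 4 without the heterozygous library numbered 2 or 3. Insig1, which encodes a sterol-regulated membrane protein, held 166, 235 and 188 TPM against 113 to 189 TPM (median 136), with overlap. Among 210 solute carriers, 35 were lower at p under 0.05 (16.7%, against 5%) and 5 higher (2.38%, against 6.24%), led by Slc35f6. Without the heterozygous library numbered 3, 18 were lower at that p. The count of 5 higher ones was 20 and 1 without the heterozygous libraries numbered 1 and 2, 3 without the null library numbered 1 or 2, and 10 without the null library numbered 4.

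**Figure D4:**
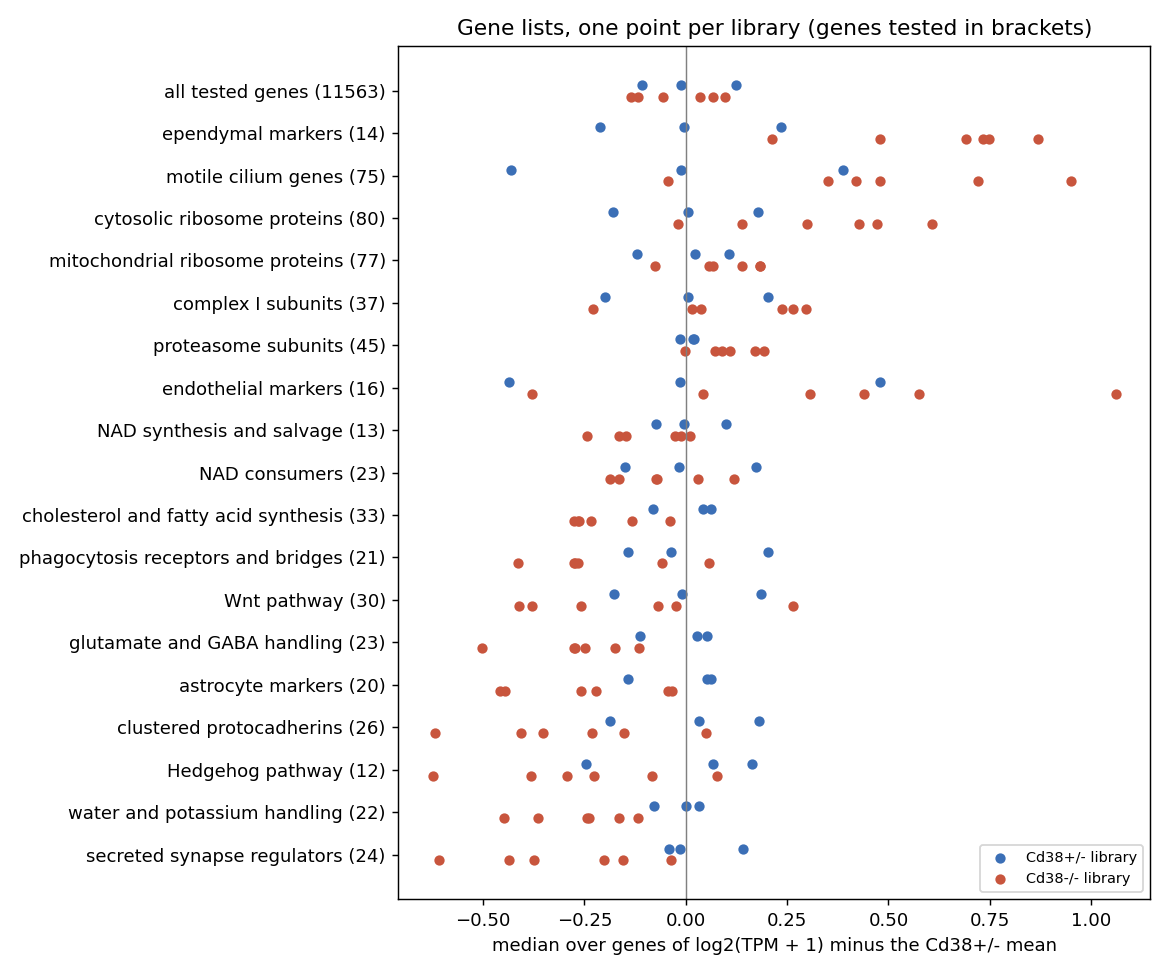
Median over the genes of a list of log2(TPM + 1) minus the Cd38+/- mean (x axis), 1 point per library, with the number of genes tested in brackets; the upper row is all 11563 tested genes. The water and potassium list lies lower in all 6 null libraries than in any heterozygous library, while motile cilium, ependymal and ribosomal protein points overlap in 1 or 2 libraries.

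The genes around the targeted enzyme's own substrate were few, and counts of this size do not set them apart from all genes. Of 13 genes of NAD synthesis and salvage, 0 were at an unadjusted limma p under 0.05, against 11.2% of all genes. Nampt, the rate-limiting enzyme of salvage, held 17.3, 11.3 and 14.7 TPM against 10.7 to 17.2 TPM (median 15.3) (log2 fold change 0.02, SE 0.18). Nmnat1 and Nmnat3 had log2 fold changes of 0.04 (SE 0.17) and -0.05 (SE 0.14), and Nadk one of -0.07 (SE 0.10). Without the heterozygous library numbered 1 Nmnat3 was at -0.00078 and Nadk at -0.033, and without the library numbered 2 they were at -0.099 and -0.11. Among 23 genes in the list of NAD consumers, 1 was higher at p under 0.05 (4.35%, against 6.24%). This was Macrod1, an ADP-ribose hydrolase gene whose product does not itself consume NAD+, at 70.5, 53.6 and 57.8 TPM against 66.3 to 94.6 TPM (median 81.9). The deacetylase gene Sirt2 was slightly higher without overlap, at 196, 205 and 208 TPM against 216 to 234 TPM (median 223), and its log2 fold change was 0.14 (SE 0.07, limma q = 0.362). Sirt1, Sirt3 and Parp1 had log2 fold changes of -0.11, 0.02 and 0.09, each smaller than its SE of 0.20, 0.11 and 0.19, which does not show that they were alike. Sarm1 and Ryr2 lay under the expression filter.

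Calcium release and store entry had 21 tested genes, 2 higher and 2 lower at p under 0.05 (9.52% each, against 6.24% and 5%). These counts are close to the shares over all genes. Atp2b2, a calcium pump of the plasma membrane, was at 49.8, 27.0 and 28.5 TPM against 14.0 to 27.7 TPM (median 24.1) and Jpt1 at 114, 103 and 127 TPM against 116 to 193 TPM (median 158). Tpcn2, a lysosomal channel opened by the CD38 product NAADP, was at 11.5, 7.62 and 9.36 TPM against 5.34 to 7.84 TPM (median 6.37), and Itpr2, the inositol trisphosphate receptor of astrocytes, at 72.9, 66.0 and 55.1 TPM against 32.0 to 64.6 TPM (median 47.5). All 4 overlapped. Subunits of the respiratory chain complexes I and III had 0 of 37 and 0 of 9 genes at an unadjusted limma p under 0.05, complex IV had 1 of 15 and ATP synthase 2 of 18, against 11.2% of all genes. Of 38 antioxidant genes 3 were higher (7.89%, against 6.24%) and 2 lower (5.26%, against 5%) at p under 0.05, which is close to the shares over all genes. Txn1 (thioredoxin) and its inhibitor Txnip were higher, at 91.2, 104 and 104 TPM against 114 to 149 TPM (median 135) and 218, 138 and 197 TPM against 212 to 284 TPM (median 260.1), while Sod3 and Slc7a11 were lower.

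Of 26 astrocyte reactivity genes 3 were higher (11.5%, against 6.24%) and 2 lower (7.69%, against 5%) at p under 0.05, also close to those shares. Vim and Tm4sf1 were higher, at 376, 244 and 336 TPM against 338 to 577 TPM (median 411) and 487, 321 and 382 TPM against 398 to 741 TPM (median 594), whereas Gfap and the complement gene C4b were lower, with overlap between the genotypes in all 4. In the circadian clock, Arntl, which encodes the activator BMAL1, was lower without overlap (38.7, 47.8 and 35.1 TPM against 25.4 to 34.5 TPM (median 27.3)), and Dbp, a clock output factor, was higher without overlap (262, 179 and 261 TPM against 285 to 453 TPM (median 299)). Among 19 genes of senescence and cell cycle arrest, 12 were higher and 7 lower. At p under 0.05, 2 were higher (10.5%, against 6.24%) and 1 lower (5.26%, against 5%), and counts of this size do not set the list apart from all genes. Hmgb2 and Hmgb1, chromatin proteins of that list, were higher, at 38.4, 62.7 and 48.5 TPM against 69.2 to 105 TPM (median 75.3) and 731, 678 and 732 TPM against 777 to 1004 TPM (median 919). None of these passed the q-value threshold. Uchl1, a ubiquitin hydrolase gene linked to Parkinson disease, held 65.1, 56.5 and 75.0 TPM against 84.1 to 119.6 TPM (median 99.8) (log2 fold change 0.61, SE 0.12, limma q = 0.089).

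Other cell types were followed through their markers. Neuronal markers summed to 426 to 574 TPM over both genotypes and microglial markers to 138 to 244 TPM. None of the 10 neuronal and 7 microglial genes tested was at p under 0.05, against 11.2% of all genes. Lists of this size are too short for that to show that these cells were alike. Endothelial markers were higher in 16 of 16 genes (median 0.35), with none at an unadjusted p under 0.05 by limma, against 11.2% of all genes. The median was 0.067 without the heterozygous library numbered 2 and 0.61 without the library numbered 1. Their sums overlapped, at 1953 to 3046 TPM against 1958.5 to 4654 TPM. Oligodendrocyte markers summed to 3635 to 18285 TPM and erythroid markers to 3232 to 15396 TPM, also overlapping. All 6 erythroid markers tested were higher in Cd38-/- (median 0.68), with none at an unadjusted p under 0.05 by limma. Their sums were highest in the null libraries numbered 3 and 4, at 15396 and 14493 TPM, against 3232 to 6463 TPM in the heterozygous libraries. Choroid plexus markers summed to 11156 TPM in the heterozygous library numbered 1 and to 670 to 3230.0 TPM in the other 8 libraries. The part of these cells in the differences was not tested.

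Cd38 is the altered locus, and sequence flanking a targeted allele is inherited with it. Its neighbours on chromosome 5 were therefore counted by distance. Within 5 Mb, 3 of 15 tested genes were at p under 0.05 and did not overlap (20%, against 11.2% and 5.73% of all genes). These 3, named after their values were seen, were Rab28 and Med28, higher at log2 fold changes of 0.33 and 0.32, and Lap3, lower at -0.35. From 5 to 20 Mb, 19 of 145 genes were at p under 0.05 (13.1%) and 9 did not overlap (6.21%), and beyond 20 Mb 63 of 600 genes were (10.5%) and 33 did not overlap (5.5%). Without the heterozygous library numbered 3 the counts at p under 0.05 in the outer ranges were 9 and 38. Of the larger differences, Sod3 lies 8.48 Mb from Cd38 and Slc35f6 13.2 Mb on the other side. Crygn lies 19.1 Mb away. For such linked genes, effects of flanking sequence and of the loss of Cd38 cannot be told apart. Over the other chromosomes 11.2% of 10788 genes were at p under 0.05.

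**Figure D5:**
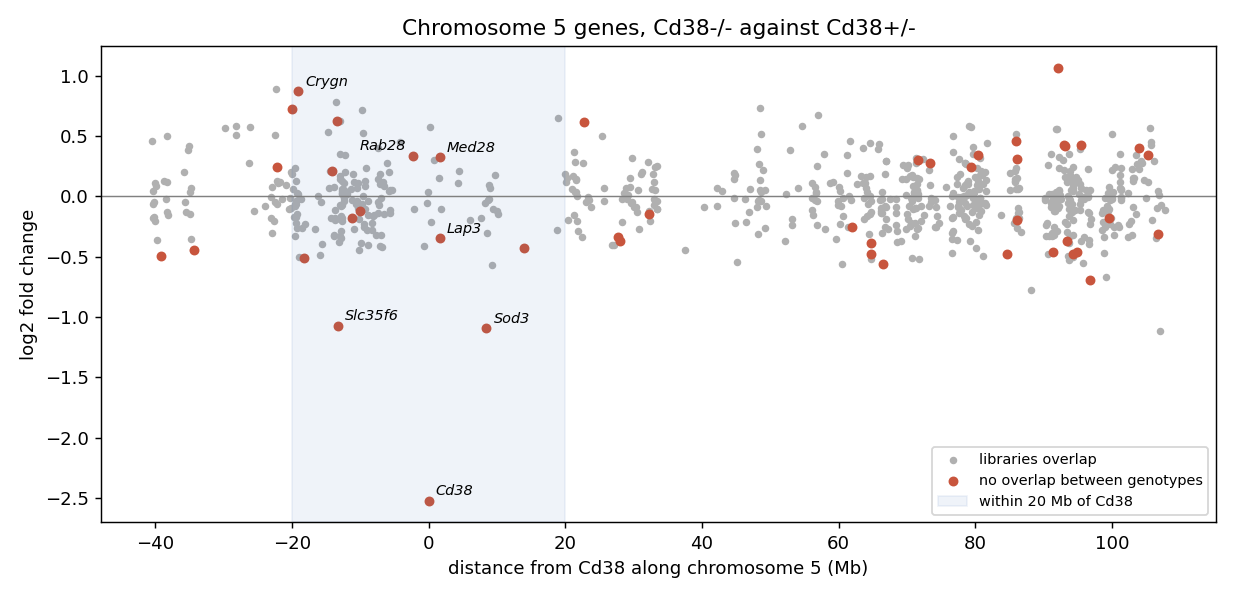
Log2 fold change (y axis) of chromosome 5 genes against the distance of their midpoint from that of Cd38 in Mb (x axis). Red points did not overlap between genotypes, and the shaded band is within 20 Mb. Cd38 lies at -2.52, Sod3 at -1.10 and Slc35f6 at -1.07, and red points are scattered along the whole chromosome.

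Genes on each side also differed in their transcripts. The 721 genes higher at p under 0.05 had a median transcript length of 904 bases and the 578 lower ones 1854 bases, against 1382 bases for all tested genes with an annotated length. Their median GC content was 50.8% and 53.7%, against 50.8%. With the trend on length and GC content removed from each library, 3 genes were DEGs, Cd38, Dram2 and Dynlt1b, and the directions of the motile cilium, ribosomal protein and water and potassium lists remained. The slope of a library's deviation from the Cd38+/- mean on log2 transcript length is negative where shorter transcripts lay higher. It was 0.071, -0.061 and -0.010 in the heterozygous libraries and 0.052, -0.017, -0.135, -0.101, -0.015 and -0.084 in the null libraries. The null library numbered 3, with the lowest slope, had the highest ribosomal protein sum. The part of length in the ribosomal protein difference was not tested further.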

How the data were processed

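RNA of ACSA-2-selected midbrain astrocytes was sequenced with paired ends. Per the submitters' processing notes and the paper's methods, the authors trimmed reads with Trim Galore 0.6.4, aligned them to mm10 with STAR 2.7.1a and estimated expression with RSEM 1.2.28. The notes also list DESeq2 1.36.0, whose output was not used here. The annotation is not given in the sources used here. The deposited unit is TPM, 1 column per library without pooling. Counts were not used here, so neither depth nor counting error can be given.

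Groups came from the sample labels. Genes with a mean above 5 TPM in either genotype were fitted as log2(TPM + 1) with limma 3.58.1 (lmFit, eBayes with a trend) in R 4.3.3, over the 9 libraries without a covariate. Storey q-values were computed with a spline, and DEGs were called at q below 0.05 with a change of 1.2-fold or more. Lists are described by counts and medians beside all tested genes, with no set test. Exact permutation tests had 84 assignments. The procedure was tested on simulated data. Gene positions, lengths and GC content came from GENCODE M21 on GRCm38, which gave a position for 20503 of the 20614 deposited genes, and promoters from RefSeq.

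The genes named are Cd38 and Bst1, every DEG, the 12 higher and 12 lower genes with the largest differences among those without overlap and at p under 0.05 (not all are described, and 3 genes under this rule are not reported here), up to 4 genes per list by p, and preset genes of NAD metabolism, astrocytes and other cell types. The comparison, its genes and its lists were chosen with earlier results of these data known. Alternatives were other pseudocounts, filters, scalings, variance models, library weights, leaving out each library, a replicate block, and removal of length and GC trends. Rescaling without ribosomal protein, cilium and ependymal genes, and the fit of the 6 libraries numbered 1 to 3 without a block, were added after the data were seen.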

Additional observations from a re-analysis of the deposited data

Results flagged for a closer look

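In 7 of 171 genes checked, and in 1 summed marker list, the highest or lowest of the 6 Cd38-/- libraries lay apart from the other 5 by Dixon's test at the 95% level. Chance flags about 1 in 20 groups. The high value was in the library numbered 3 for Ctla2a (46.81 TPM, the others at most 24.8 TPM) and Psmd10 (40.09 TPM, the others at most 36.7 TPM). It was in the library numbered 5 for Lamp2 (306.52 TPM, the others at most 275 TPM), Prrx2 (4.11 TPM, the others at most 3.11 TPM) and Sirt1 (14.05 TPM, the others at most 9.85 TPM). In the library numbered 6, Snap25 (60.69 TPM, the others at most 22.9 TPM) and the summed microglial markers (244.42 TPM, the others at most 169.8 TPM) were high, and Sod3 was low (9.18 TPM, the others at least 16.04 TPM). Ctla2a, Psmd10, Lamp2, Prrx2 and Sod3 did not overlap between the genotypes with these libraries included.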

How the results depend on the processing

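The medians of the motile cilium, ribosomal protein, ependymal, astrocyte, water and potassium, and glutamate and GABA lists kept their direction and moved by less than 1 SD between libraries in every alternative run. The counts did not. DEGs numbered 1 with median-ratio scaling, 2 with a log2 fold threshold of 1.2 and 3120 with library quality weights, whose estimate did not converge and gave 1 heterozygous library a weight of 42.6, with 4642 genes at p under 0.05. Leaving out 1 library gave 0 to 93 DEGs, 767 to 1504 genes at p under 0.05 and 703 to 1595 without overlap, and a log2 fold change of Cd38 of -2.63 to -2.37. Apart from Cd38, the total counts and the lists just named, 4796 values for genes, lists, directions and chromosome 5 ranges were labelled as unchanged. For a gene the label asks only for the same direction and the same DEG status. As few genes were DEGs, most genes met it almost by construction, and the label says little about sizes. Foxj1, for example, ran from 0.057 to 0.64 under this label. A further 155 passed the threshold newly, 36 no longer passed it, 37 moved and 33 reversed. Depth is unknown, so low genes have no interval.

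Equal replicate numbers did not deviate together (r of 0.46, -0.33 and -0.01), and no label pairs them. With the replicate block there were 2 DEGs and 2171 genes without overlap, against 1 and 2171 in the same 6 libraries without the block. With the block and the length and GC trend removed there were 2 and 2283. Fewer libraries make non-overlap more frequent by construction.

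None of the genes whose direction reversed was called here, and the cause was not tested. Sirt3 was at -0.0032 with quantile normalization, -0.0015 with the length and GC trend removed, -0.093 with the replicate block or its 6 libraries, and -0.093 with both corrections. Nmnat1 was at -0.0087, -0.035 and -0.075 under the last 3 of these. Nampt was at -0.046 with weights and -0.030 with the length and GC trend removed. With weights Ttr was at 2.51 and 1 of the 2 Nnt entries at 0.064. With the block, and with both corrections, Snap25 was at -0.032 and -0.050, and Ttr at 0.16 and 0.089. Leaving out 1 library gave ranges of -0.28 to 0.014 for Sirt1, -0.13 to 0.16 for Nampt, -0.039 to 0.59 for Pecam1, -0.031 to 0.062 for Sirt3, -0.086 to 0.31 for Parp1, -0.0019 to 0.75 for Snap25, -0.0600 to 0.14 for Nmnat1, -0.0038 to 1.02 for Mbp and -1.96 to 1.41 for Ttr.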
